A study of Canis lupus familiaris with 26 samples.

Results

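The genes described here are ACTA2, VIM and AHNAK, 3 of the 18466 genes in the count table of canine mammary stroma. They were taken by symbol, through the pairs of symbol and Ensembl identifier that accompany the study, and were selected on their known counts in tumour stroma against normal stroma, as cytoskeletal genes linked to fibroblast activation. The difference between the groups is therefore part of how they were chosen, and it is given below as a description with no test. Tests were kept for what that choice did not use. They asked how the genes varied within a group, between tissues of 1 dog, with library size and with the age of the paraffin block. Other genes of the same pathways and markers of cell types were tested between the groups too. Their lists were drawn up with earlier results of these data known, so those tests are no independent evidence.

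Stroma was cut by laser-capture microdissection from formalin-fixed, paraffin-embedded (FFPE) simple mammary adenomas of 13 female dogs, and its total RNA was sequenced. Each dog gave 1 sample of adenoma-associated stroma (AAS, labelled as cancer-associated stroma in the sample records) and 1 sample of normal stroma, which was taken from the same slides beside mammary gland without alterations. The tumours arose spontaneously and were removed in surgery. Pair 14 was set apart because its normal stroma library held only 83727 counts, which left 12 pairs from dogs aged 6 to 13 years, in blocks kept for 4 to 29 months.

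ACTA2 codes for α-smooth muscle actin, the actin of contractile stress fibres in smooth muscle, pericytes and myoepithelium, which fibroblasts also make when they become myofibroblasts. VIM codes for vimentin, the intermediate filament protein of fibroblasts, endothelium, leukocytes and other mesenchymal cells. AHNAK codes for a very large scaffold protein that lies under the plasma membrane, where it binds annexin A2 with S100A10 and links this complex to cortical actin. In bulk samples such as these, fewer cells of a type and less RNA per cell cannot be told apart.

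The 12 normal stroma libraries held 759119 to 1602797 estimated counts and the 12 AAS libraries 419770 to 1614120, and levels are given as CPM, counts scaled to a common library size after TMM adjustment. On this scale 3 counts, taken as the detection floor, stood for 1.53 to 6.37 CPM in normal stroma and for 1.53 to 10.5 CPM in AAS, save for 28.0 CPM in the AAS library of pair 7. The AAS library of pair 7 stood apart, since a single gene took 84.9% of its 618441 counts and left 93673 for all others. The lowest such share among AAS was 5.53%. In normal stroma the most counted gene took 10.5% to 45.3% of a library, and 42.3% in that of pair 7. The 4 AAS libraries with the smallest totals were those of pairs 7, 8, 10 and 15, and values without these pairs are given where they bear on a result. Intervals on counts cover counting error only.

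ACTA2 (ENSCAFG00000015708) was higher in AAS than in normal stroma in 10 of 12 pairs. In normal stroma its level ran from 4.10 CPM in pair 15 through a median of 36.9 CPM to 112 CPM in pair 9, and in AAS from 9.34 CPM in pair 7, which is 1 count and under that library's floor, through a median of 68.8 CPM to 274 CPM in pair 9. The groups overlapped widely: 3 of 12 AAS samples lay above every normal stroma sample, and 1 normal stroma sample lay below every AAS sample. The means were 48.7 ± 34.9 CPM in normal stroma and 92.2 ± 82.0 CPM in AAS (SD, n = 12 each). The fitted log2 fold-change was 0.94 (SE 0.44), that is 1.91-fold higher in AAS, beside a median of 0.008 over the 4544 genes tested. Of all tested genes, 3.79% were above in AAS in at least 10 of 12 pairs.

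The 2 pairs in which ACTA2 was lower in AAS were pairs 6 and 7. In pair 6 it went from 88.9 CPM in normal stroma to 18.7 CPM in AAS, the lowest log2 difference of the 12 pairs at -2.14. In pair 7 the AAS value rested on 1 count and the normal stroma value on 9. The direction in this pair is therefore not resolved by the depth. As shares of the library total, the exact 95% intervals of the 2 samples also overlapped in pairs 10, 11 and 12, each higher in AAS. At the other end, pair 15 went from 4.10 to 40.1 CPM, a log2 difference of 2.81, from 4 counts in normal stroma and 21 in AAS. The dogs differed more in ACTA2 than in the other 2 genes, and the 12 log2 differences had an SD of 1.23 around a median of 0.96. The excluded pair 14 had 22.2 CPM from 3 counts in normal stroma and 57.1 CPM from 57 counts in AAS. That is the common direction, but the intervals of its shares overlapped too.

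VIM (ENSCAFG00000004529) was lower in AAS in 12 of 12 pairs. In normal stroma it ran from 1032 CPM in pair 4 through a median of 1659 CPM to 2987 CPM in pair 3, and in AAS from 210 CPM in pair 10 through a median of 785 CPM to 1502 CPM in pair 9. Of the AAS samples, 7 lay below every normal stroma sample, and 9 normal stroma samples lay above every AAS sample, so the groups met only in the range between the weakest normal and the strongest AAS samples. The means were 1784 ± 591 CPM in normal stroma and 811 ± 386 CPM in AAS (SD, n = 12 each), and the fitted log2 fold-change was -1.13 (SE 0.24), a 2.19-fold lower level in AAS. A lower level in all 12 pairs was seen in 0.990% of tested genes, and the choice of VIM for its values means that nothing is read from this share.

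The size of the VIM difference varied strongly between dogs. Pairs 10 and 8 had the widest gaps, with log2 differences of -3.00 and -2.79, and their AAS libraries held 419770 and 499178 counts, the smallest and the third smallest of the group. Pairs 9, 13 and 4 had the narrowest gaps, with log2 differences of -0.24, -0.47 and -0.49. Without the 4 pairs whose AAS libraries were smallest, the fitted log2 fold-change of VIM was -0.84 (SE 0.23, 8 pairs). The excluded pair 14 went the other way, from 1699 CPM in normal stroma to 2143 CPM in AAS, and with all 13 pairs the fitted value was -0.96 (SE 0.24). Pair 4 also depended on the scaling: as a share of the library total, without TMM, VIM was higher in AAS there and lower in the other 11 pairs.

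AHNAK (ENSCAFG00000032525) showed the widest separation of the 3 genes. In normal stroma it ran from 1525 CPM in pair 7 through a median of 3048 CPM to 5447 CPM in pair 8, and in AAS from 429 CPM in pair 7 through a median of 854 CPM to 1799 CPM in pair 9. All AAS samples but that of pair 9, 11 of 12, lay below every normal stroma sample, and 10 of 12 normal stroma samples lay above every AAS sample. Among all tested genes, 0.176% were lower in AAS with no overlap between the groups. AHNAK was not one of these, since its AAS sample of pair 9 lay within the range of normal stroma. The share of genes with a separation as wide as that of AHNAK was not taken. The means were 3149 ± 1144 CPM in normal stroma and 926 ± 415 CPM in AAS (SD, n = 12 each), and the fitted log2 fold-change was -1.76 (SE 0.24), a 3.39-fold lower level in AAS.

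AHNAK was lower in AAS in 12 of 12 pairs, both with TMM scaling and as a share of the library total. The log2 differences ran from -3.39 in pair 8, where the level went from 5447 to 519 CPM, to -0.56 in pair 6, where it went from 1606 to 1088 CPM. Their median was -1.90 and their SD 0.74, the smallest SD of the 3 genes. In the order of fitted fold-changes over the 4544 tested genes AHNAK stood at place 52 from the low end, VIM at place 166 from the low end and ACTA2 at place 231 from the high end. Without the 4 pairs with the smallest AAS libraries the fitted value was -1.51 (SE 0.23), and pair 14 had a small difference in the same direction, from 2585 to 2255 CPM. In the RefSeq annotation of assembly UU_Cfam_GSD_1.0 a long non-coding RNA gene, LOC111091012, overlaps AHNAK, and reads from the 2 genes may not be separable here.

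**Figure D1:**
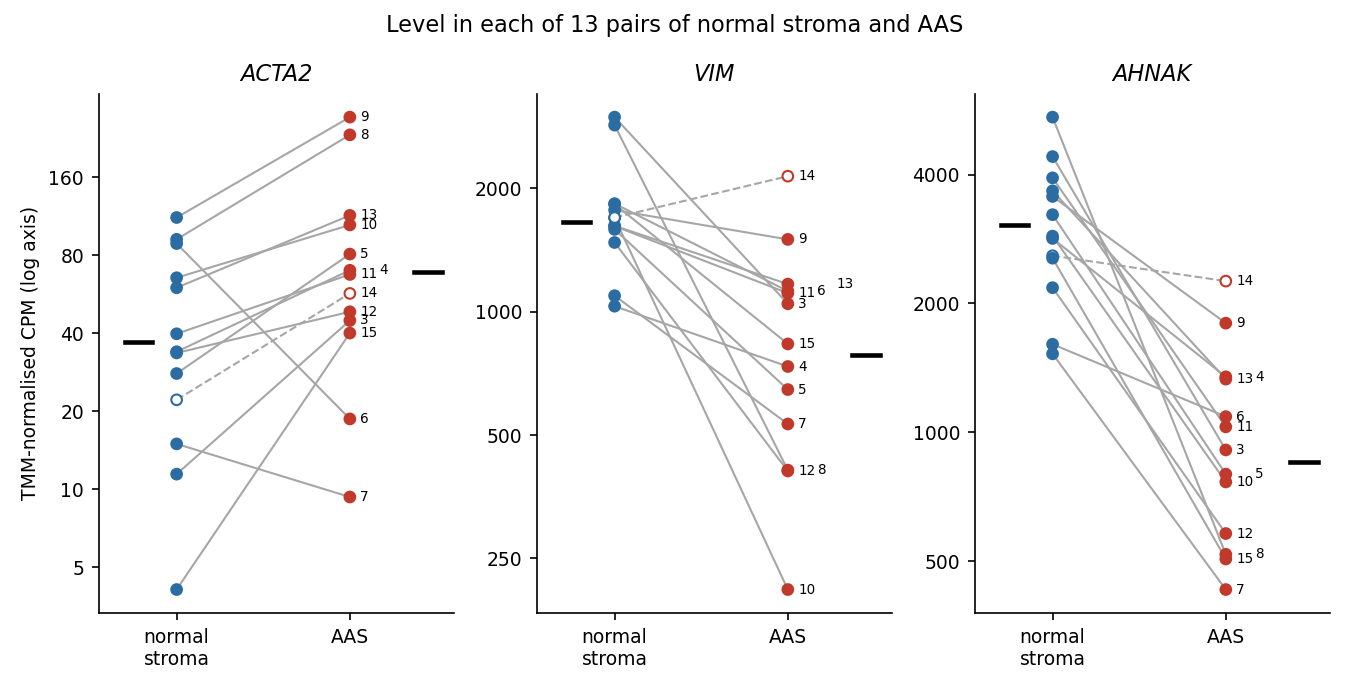
TMM-normalised CPM on a log axis of ACTA2, VIM and AHNAK in normal stroma (blue) and AAS (red), with a line joining the 2 samples of each dog, the pair number beside the AAS point, open points and a dashed line for the excluded pair 14, and black bars at the medians of the 12 pairs. Lines of ACTA2 go up in 10 of 12 pairs and down in pairs 6 and 7, while all 12 lines of VIM and AHNAK go down and only the VIM line of pair 14 goes up.

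The balance of contractile actin against vimentin was followed as the number of ACTA2 counts per 100 VIM counts in each sample, a ratio within 1 library that no scaling of library size can move. It is compared between samples only, since the transcripts differ in length. In normal stroma the ratio ran from 0.224 in pair 15 through a median of 2.85 to 6.33 in pair 9, and in AAS from 1.66 in pair 6 through a median of 9.65 to 56.9 in pair 8. The AAS value exceeded that of the same dog's normal stroma in 11 of 12 pairs, and 7 AAS samples lay above every normal stroma sample. The median log2 difference was 1.96, or 3.88-fold, with an SD of 1.72 over the 12 pairs.

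Counting error was small beside most of these differences. The exact 95% intervals of the 2 samples of a dog lay apart with AAS above in 10 pairs, lay apart with AAS below in pair 6, where the ratio went from 4.84 to 1.66, and overlapped in pair 7. The interval of the pair 7 AAS sample, with 1 ACTA2 count and 57 VIM counts, reached from 0.0437 to 10.2 per 100. In pairs 8 and 10 the AAS ratio was the highest of all, 56.9 and 50.0 per 100, from 3.23 and 3.87 in normal stroma, and VIM had its widest gaps there. The steepest increases besides these had another starting point. In pairs 15 and 3 the normal stroma ratio was the lowest, 0.224 and 0.383 per 100, against 4.81 and 4.29 in AAS. In the excluded pair 14 the ratio was 1.30 and 2.66 per 100, with overlapping intervals.

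**Figure D2:**
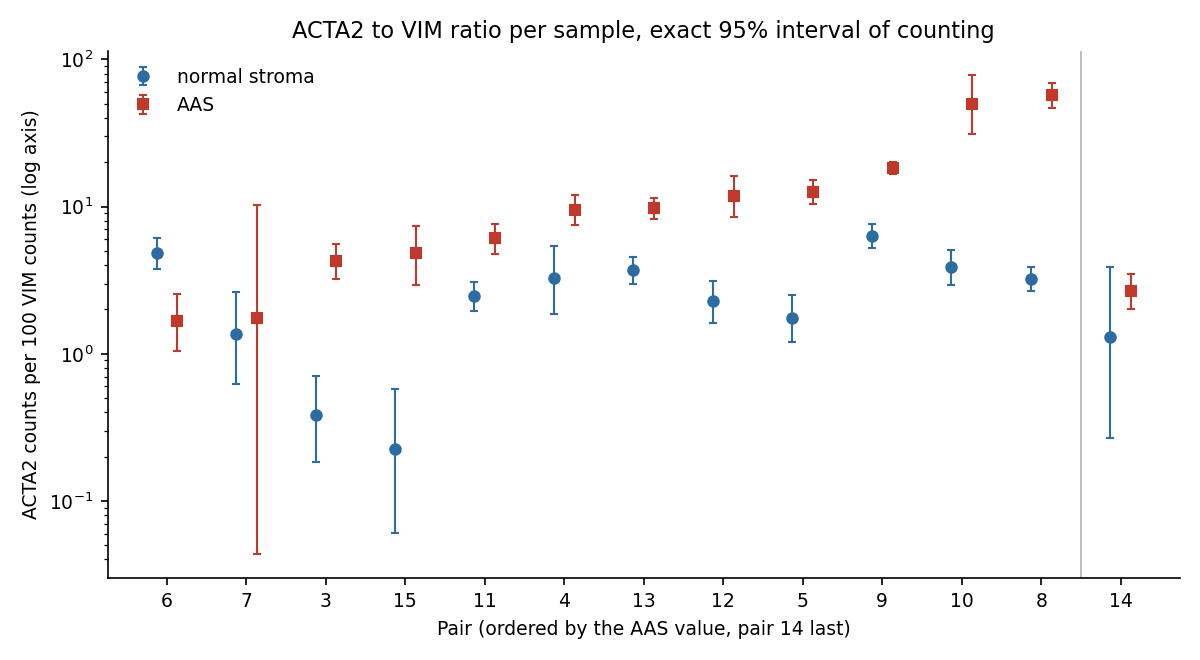
ACTA2 counts per 100 VIM counts on a log axis in normal stroma (blue circles) and AAS (red squares) of each pair, ordered by the AAS value with pair 14 last, and bars for the exact 95% interval of counting. AAS lies above with separate intervals in 10 of the 12 pairs, below in pair 6 and overlapping in pair 7, and pairs 10 and 8 reach 50.0 and 56.9 per 100.

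AHNAK counts per 100 VIM counts set the 2 genes with lower levels in AAS against each other. This ratio ran from 87.5 in pair 6 through a median of 180 to 275 in pair 4 in normal stroma, and from 60.6 in pair 15 through a median of 117 to 365 in pair 10 in AAS. It was lower in AAS in 10 of 12 pairs, with a median log2 difference of -0.73 and an SD of 0.67. Pair 10 was the exception with separate intervals, going from 169 to 365 per 100, where VIM had 60 counts in the AAS library. The ratios of the groups overlapped over nearly their whole range.

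Within a group the 3 genes differed in how much dogs varied. The SD of log2 CPM of ACTA2 was 1.27 in normal stroma and 1.32 in AAS, above the medians over all tested genes of 0.93 and 1.16. That of VIM was 0.45 in normal stroma and 0.82 in AAS, and that of AHNAK 0.55 and 0.65, all below those medians. A smaller SD than that of VIM was seen in 13.2% of tested genes in normal stroma and in 31.4% in AAS. The genes compared were not matched for level, so these shares do not show that VIM was steadier than genes of like level. Without pair 7, whose AAS value rested on 1 count, the SD of ACTA2 was 1.28 in normal stroma and 1.09 in AAS. The medians over all tested genes were not taken without this pair.

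Correlations between the genes were computed in each group separately, so that the shift between groups played no part. With gene pairs, tissues of the same dog and block age, 15 correlations were tested by permutation and adjusted together, and none had an adjusted p below 0.05. Among the gene pairs within a group, VIM and AHNAK had the highest values. In normal stroma Pearson's r was 0.62 (permutation p = 0.0304, adjusted p = 0.19, n = 12) and Spearman's rho 0.47 (permutation p = 0.129, adjusted p = 0.441). In AAS r was 0.62 (permutation p = 0.0307, adjusted p = 0.19, n = 12) and rho 0.71 (permutation p = 0.0132, adjusted p = 0.181). Without the 2 samples farthest from the median of VIM, r was 0.27 in normal stroma, where the relation rested on those samples, and 0.71 in AAS. With the log2 library total regressed out, a step added after the data had been seen, r was 0.79 in normal stroma and 0.06 in AAS.

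With TMM scaling no correlation of ACTA2 with either gene passed the test. Its r with VIM was 0.08 in normal stroma (rho 0.22, adjusted permutation p = 0.925) and -0.0011 in AAS (rho 0.08, adjusted permutation p = 0.997), and without the 2 samples farthest on ACTA2 these were 0.16 and -0.46. Its r with AHNAK was 0.20 in normal stroma (rho 0.27, adjusted permutation p = 0.904) and 0.43 in AAS (rho 0.43, adjusted permutation p = 0.364), and 0.11 and -0.16 without those samples. With the library total in place of TMM, r in AAS was 0.58 with VIM (adjusted permutation p = 0.0942) and 0.78 with AHNAK (adjusted permutation p = 0.036), so these values depended on the scaling. A value that misses the test at 12 samples does not show that the genes were unrelated.

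**Figure D3:**
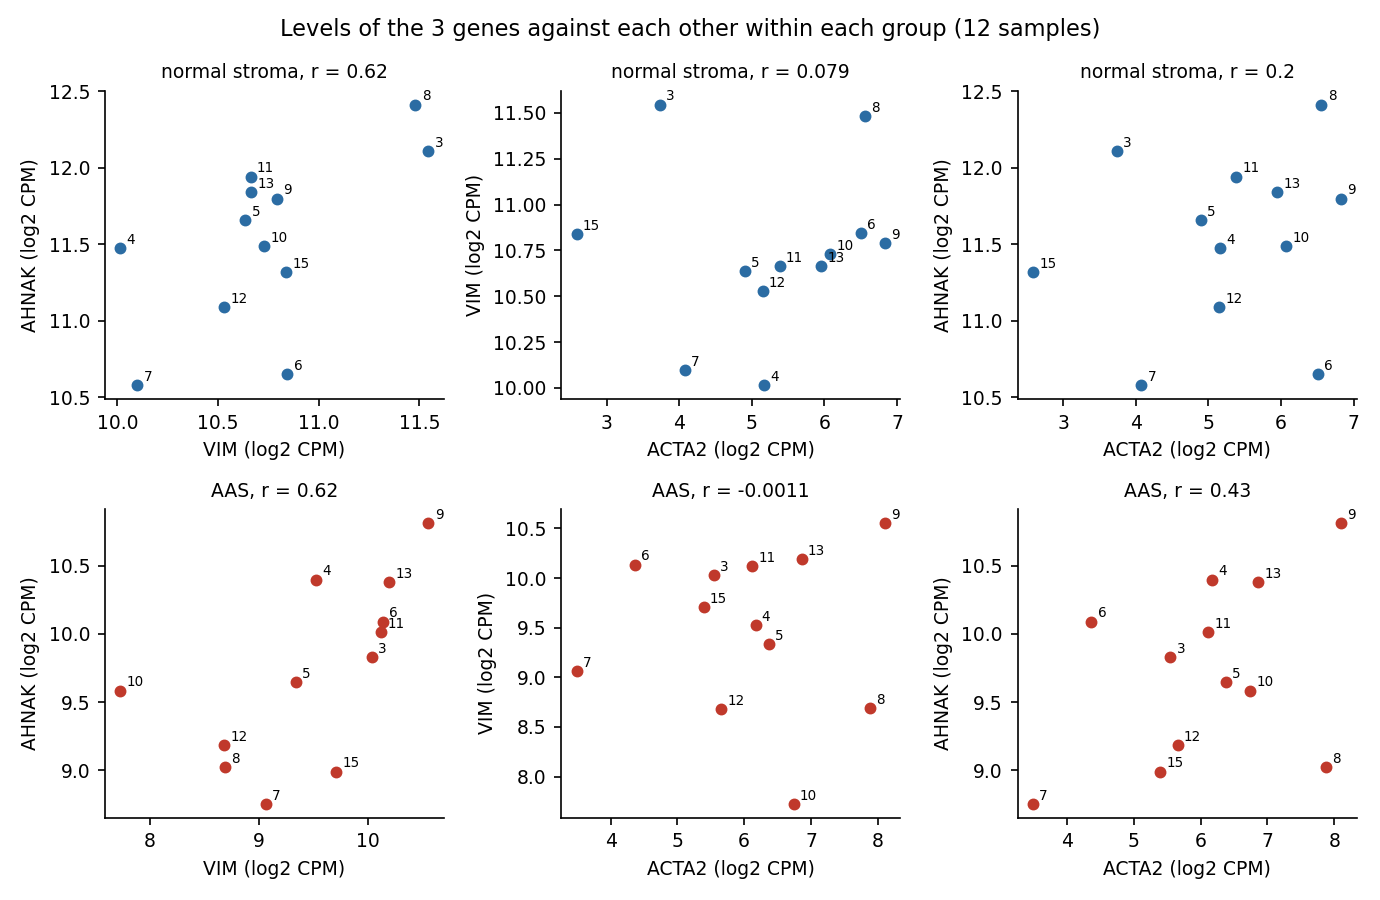
Log2 CPM of the 3 genes against each other over the 12 normal stroma samples (top row, blue) and the 12 AAS samples (bottom row, red), each point labelled by its pair, with Pearson's r above each panel. VIM and AHNAK have r of 0.62 in both groups (0.06 in AAS with the log2 library total regressed out), and the panels with ACTA2 show no such slope except for ACTA2 and AHNAK in AAS, where r is 0.43 and pairs 7 and 9 lie at the ends.

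Levels in the 2 tissues of a dog were compared in the same way. For ACTA2 r was 0.55 over the 12 dogs (permutation p = 0.0653, adjusted p = 0.196) and rho 0.66 (permutation p = 0.0241, adjusted p = 0.181), and r was 0.49 without the 2 dogs farthest from the median. The dog of pair 9 had the highest ACTA2 level in both tissues and that of pair 8 the second highest. For VIM r was 0.08 and rho 0.27 (adjusted permutation p = 0.925 for r), with r of 0.23 without the 2 dogs farthest out. For AHNAK r was 0.26 and rho 0.27 (adjusted permutation p = 0.782 for r), with r of 0.13 without such dogs. No gene passed the test after adjustment.

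The library total moved with VIM and AHNAK in AAS, a comparison added after the data had been seen. In the 12 AAS samples r of log2 CPM with the log2 total was 0.74 for VIM (rho 0.63, permutation p = 0.00605, adjusted over 6 tests p = 0.0181) and 0.81 for AHNAK (rho 0.82, permutation p = 0.00164, adjusted p = 0.00984). Without the 2 samples with totals farthest from the median, r was 0.76 for VIM and 0.90 for AHNAK. In normal stroma r was -0.15 for VIM and 0.47 for AHNAK, and for ACTA2 it was 0.17 in normal stroma and 0.15 in AAS, and none of these 4 passed the test. With the log2 total as a term of the fit, the log2 fold-changes between the groups were 0.95 for ACTA2, -1.11 for VIM and -1.67 for AHNAK. The part of library size in the spread of VIM and AHNAK among AAS samples was not tested further.

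**Figure D4:**
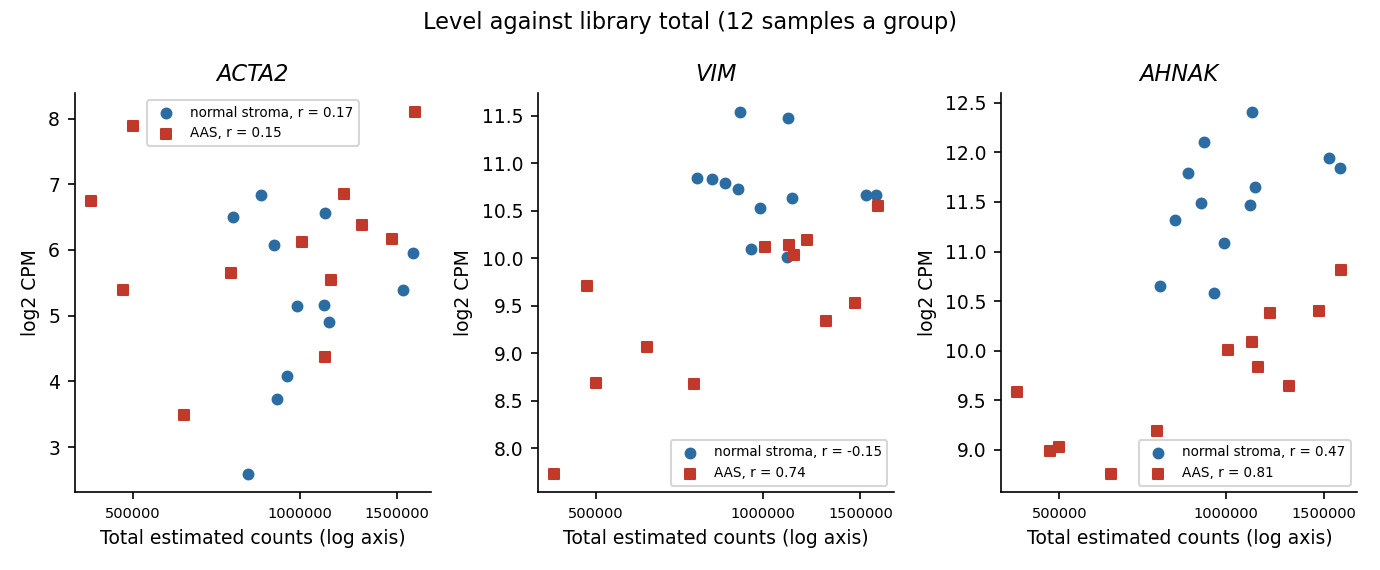
Log2 CPM of ACTA2, VIM and AHNAK against the library total in estimated counts on a log axis, for 12 normal stroma samples (blue circles) and 12 AAS samples (red squares), with Pearson's r in each key. In AAS the levels of VIM and AHNAK go up with the total, with r of 0.74 and 0.81, while AHNAK in normal stroma lies above AAS at like totals.

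Block age was set against each gene within each group, and none of these 6 correlations passed the adjusted test. For ACTA2 in AAS r with months in paraffin was -0.60 (rho -0.37, permutation p = 0.0397, adjusted p = 0.19), and without the 2 samples farthest in age it was -0.46. For AHNAK in normal stroma r was -0.57 (rho -0.42, permutation p = 0.0507, adjusted p = 0.19), and -0.47 without those samples, and for VIM in normal stroma it was -0.51 (rho -0.43, adjusted p = 0.215), and -0.34 without them. The oldest block, of 29 months, was that of pair 7, and without this pair r of ACTA2 in AAS was -0.37. The other 3 correlations with block age lay between -0.12 and -0.06 and had no stable sign. Without pair 7 and without the 2 samples farthest in age, ACTA2 in normal stroma had r of 0.13 and 0.25 and AHNAK in AAS 0.29 and 0.43, and VIM in AAS had -0.037 and 0.013. Both samples of a dog came from the same slides, and with months as a covariate the fold-changes were 0.81, -1.12 and -1.73 for ACTA2, VIM and AHNAK.

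The surroundings of the 3 genes were followed in 6 lists of pathway genes that together named 123 genes. An identifier paired with the symbol was at hand for 57 of these, and 47 had enough counts to be tested. By edgeR's quasi-likelihood test 1 of the 47, a lower one, passed an adjusted p below 0.05 with a log2 fold-change beyond 1, against 1.80% of all tested genes in either direction and 1.19% lower, and 16 of 47 had an unadjusted p below 0.05, against 10.5% of all tested genes. DESeq2 called 3 of the 47, against 2.95% of all tested genes, and edgeR with the pair as a block called 3, against 2.53%. Symbols came from the study's own tables, which were made on these samples, so these counts are no independent evidence of a direction. Among the tested genes with a symbol, 3.77% were called by edgeR and 23.0% had an unadjusted p below 0.05, so the list genes had been drawn from a more changed set than all tested genes.

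Around ACTA2, none of the 12 tested contractile and smooth muscle genes passed by edgeR or by DESeq2, 7 were fitted above and 5 below 0, 3 had an unadjusted p below 0.05, and the median log2 fold-change was 0.29 against 0.008 over all tested genes. MYL9, a myosin light chain of contractile cells, had 221 ± 62.9 CPM in normal stroma and 331 ± 133 CPM in AAS (SD, n = 12 each), a log2 fold-change of 0.59 (SE 0.20, edgeR adjusted p = 0.157). TNS1, a tensin of focal adhesions, had a log2 fold-change of -0.88 (SE 0.34, edgeR adjusted p = 0.264), with 11 of 12 pairs lower in AAS. With the pair as a block TNS1 had -0.98 (edgeR adjusted p = 0.0478), short of the required size. DESeq2 with the block gave TNS1 its smallest adjusted p, 0.00551. The largest, 0.497, came without the 4 pairs with the smallest AAS libraries. TNS1 passed both thresholds in 0 of 14 alternative analyses. ZYX, the focal adhesion protein zyxin, was lower in 12 of 12 pairs with -1.16 (SE 0.56, edgeR adjusted p = 0.472), and passed in 1 of 14 alternative analyses. ACTG2, the enteric smooth muscle actin and a near-identical relative of ACTA2, had 22.0 ± 18.2 CPM in normal stroma and 45.9 ± 53.4 CPM in AAS, with the AAS sample above in 6 of 12 pairs (log2 fold-change 1.07, SE 0.61, edgeR adjusted p = 0.598). Other muscle actins, ACTA1 and ACTC1, were not analysed here, and reads shared among these actins could have been split between them.

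Of the 6 tested genes of the non-muscle actin cytoskeleton, 0 passed both thresholds by edgeR or DESeq2, 2 had an unadjusted p below 0.05, and 5 were fitted below 0, with a median of -0.33. CORO1C, a coronin that binds actin filaments, had an edgeR adjusted p of 0.0450 with a log2 fold-change of -0.87 (SE 0.24), short of the required size, and 11 of 12 pairs were lower in AAS. Its adjusted p was 0.0278 by edgeR with the pair as a block and 0.0237 by DESeq2. Over 14 alternatives it ran from 0.00174 to 0.739, the latter by edgeR with all 13 pairs, and CORO1C passed both thresholds in 0 of them. CFL1, the filament-severing cofilin, had 0.93 (SE 0.45, edgeR adjusted p = 0.472), and MSN, the membrane linker moesin, had -0.60 (SE 0.36, edgeR adjusted p = 0.63).

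Around VIM, the 9 tested intermediate filament, lamin and linker genes gave 0 calls by edgeR and DESeq2 and 2 unadjusted p below 0.05, with 7 fitted below 0 and a median of -0.32. NES, the intermediate filament protein nestin that assembles with vimentin, had 33.0 ± 12.4 CPM in normal stroma and 62.5 ± 26.5 CPM in AAS, up in 11 of 12 pairs and thus opposite to VIM (log2 fold-change 0.94, SE 0.31, edgeR adjusted p = 0.14). Without the 4 pairs with the smallest AAS libraries NES passed, at 1.23 with an edgeR adjusted p of 0.0322, and over 14 alternatives its adjusted p reached up to 0.365. DST, the linker dystonin, had -0.60 (SE 0.29, edgeR adjusted p = 0.475), with 11 of 12 pairs lower in AAS. With the pair as a block DST had -0.86 (edgeR adjusted p = 0.0579). DESeq2 with the block gave DST its smallest adjusted p, 0.0135, and the largest, 0.566, came without pair 7. DST passed both thresholds in 0 of 14 alternatives. LMNA, the nuclear lamin A/C gene, had -0.38 (SE 0.19, edgeR adjusted p = 0.5).

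Around AHNAK, 3 of 13 listed partner and membrane scaffold genes could be tested, and 0 passed by edgeR, by DESeq2 or at an unadjusted p below 0.05. ANXA2, the annexin that AHNAK binds, had 35.4 ± 22.9 CPM in normal stroma and 17.1 ± 13.9 CPM in AAS, with the AAS sample lower in 9 of 12 pairs (log2 fold-change -0.98, SE 0.53, edgeR adjusted p = 0.575). CAVIN1, a coat protein of caveolae, had -0.28 (SE 0.16, edgeR adjusted p = 0.609), and ANXA1, another annexin, had -0.28 (SE 0.44, edgeR adjusted p = 0.933). The paralogue AHNAK2 was not analysed here.

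Among 10 tested genes of fibroblast activation, 0 passed by edgeR and 6 had an unadjusted p below 0.05, with a median of -0.41. COL1A2, a chain of type I collagen, was lower in every one of the 12 AAS samples than in its partner, with 747 ± 562 CPM in normal stroma and 286 ± 217 CPM in AAS (log2 fold-change -1.36, SE 0.38, edgeR adjusted p = 0.0532). It passed with the pair as a block, at -1.44 (edgeR adjusted p = 0.00204), and in 9 of 14 alternatives, whose adjusted p ran from 5.41e-06 to 0.213. COL1A1, the partner chain, had -1.26 (SE 0.50, edgeR adjusted p = 0.301), with 10 of 12 pairs lower in AAS. TNC, the matrix protein tenascin-C, had 7.80 ± 10.2 CPM in normal stroma and 38.4 ± 58.7 CPM in AAS, with the AAS sample above in 10 of 12 pairs (log2 fold-change 2.34, SE 0.76, edgeR adjusted p = 0.135). TNC passed with DESeq2 (adjusted p = 0.0495) and in 5 of 14 alternatives, whose adjusted p ran from 0.00166 to 0.2.

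Among 7 tested regulators of the TGF-beta and SRF pathways, which drive ACTA2 in myofibroblasts, 1 passed. KLF4 (ENSCAFG00000002797), a transcription factor known as a repressor of smooth muscle genes, fell from 57.5 ± 28.5 CPM in normal stroma to 11.5 ± 6.35 CPM in AAS (SD, n = 12 each), lower in 12 of 12 pairs, with a log2 fold-change of -2.35 (SE 0.39, edgeR adjusted p = 0.000223). It passed in all 14 alternatives, with an adjusted p of at most 0.00497. KLF4 was listed with earlier results of these data known, so its call is no independent evidence. ITGA5, the α5 chain of the fibronectin receptor, was lower in 11 of 12 pairs with -0.96 (SE 0.32, edgeR adjusted p = 0.135), and with the pair as a block it passed at -1.07 (edgeR adjusted p = 0.0434). Its adjusted p over 14 alternatives ran from 0.00319 to 0.57. ITGAV, an integrin chain that can release active TGF-beta, had 0.54 (SE 0.25, edgeR adjusted p = 0.43), and MRTFB, an SRF coactivator, had -0.61 (SE 0.35, edgeR adjusted p = 0.599). The list's median was -0.25, with 3 genes fitted above and 4 below 0.

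**Figure D5:**
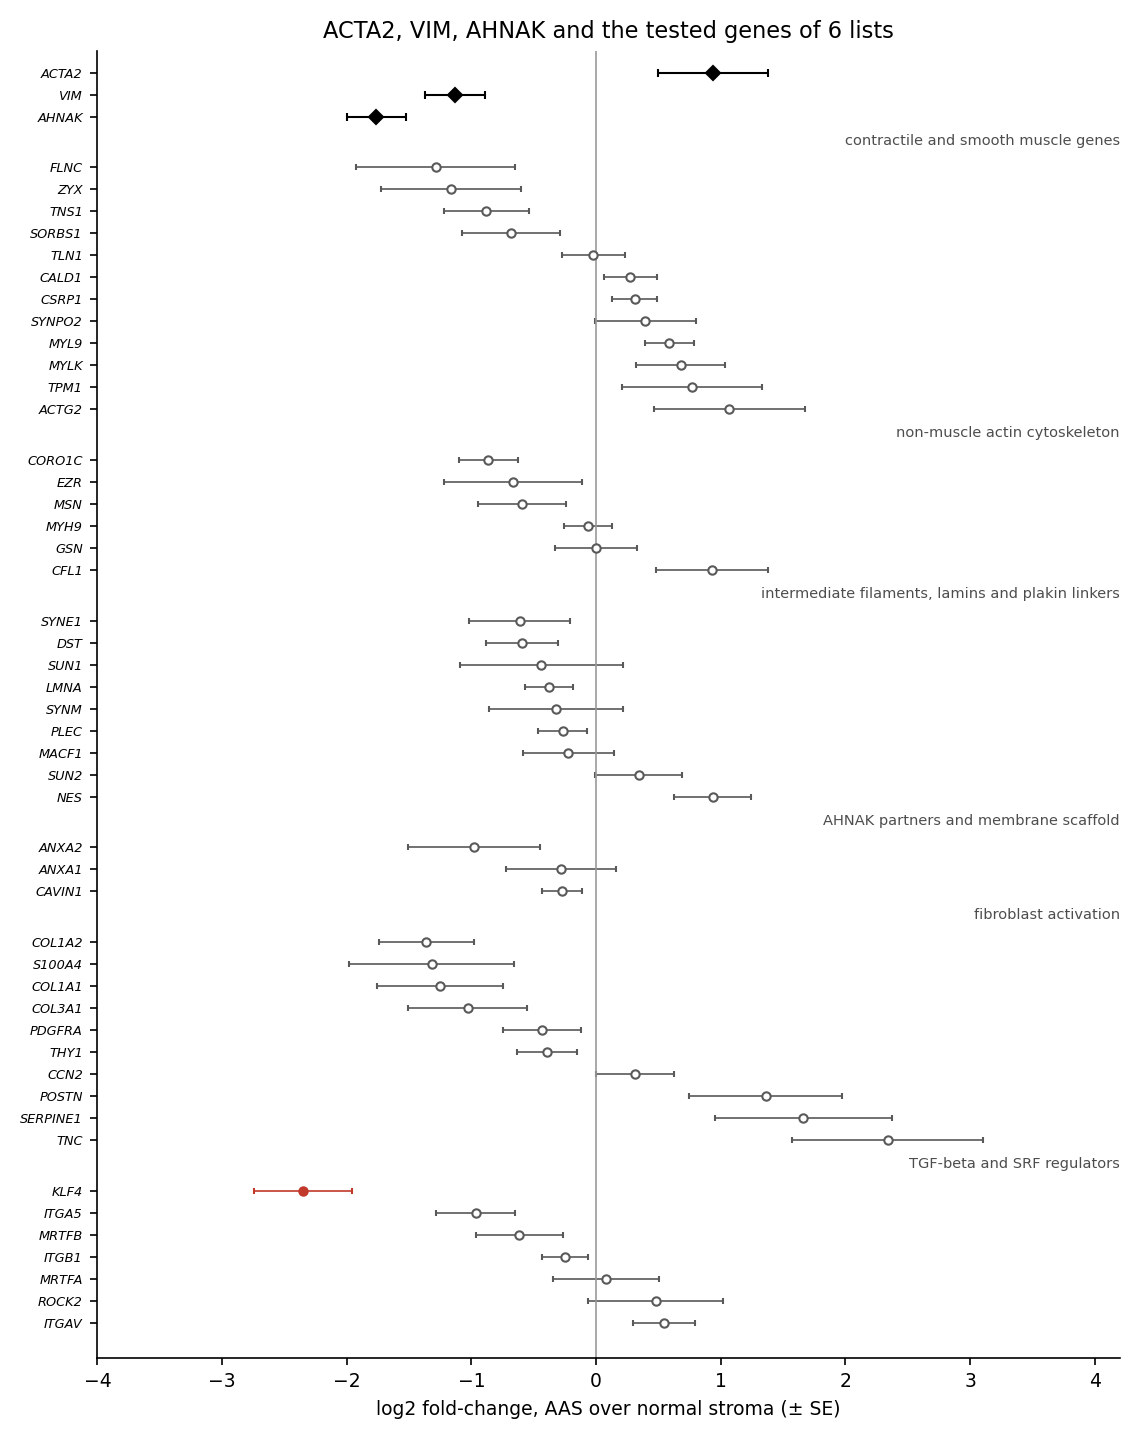
Fitted log2 fold-change of AAS over normal stroma with its SE for ACTA2, VIM and AHNAK (black diamonds) and for the 47 tested genes of 6 pathway lists (circles, filled red where edgeR called the gene). KLF4 at -2.35 is the single filled point, and the contractile genes lie on both sides of 0.

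Markers of the cells that could carry these genes were read beside them, as sums of CPM over each list. For 3 lists that bear most on ACTA2, myoepithelium, pericytes with vascular smooth muscle, and skeletal muscle, no marker had an identifier, so the part of these cells in the ACTA2 values was not tested. The 3 luminal epithelial markers of 10 listed (EPCAM, CDH1 and KRT19) summed to 90.3 to 238 CPM in normal stroma and 95.5 to 292 CPM in AAS. The sum was larger in AAS in 8 of 12 pairs. EPCAM and CDH1 were found in every sample, while KRT19 was at 0 in 3 normal stroma samples and 1 AAS sample. No listed marker with an identifier was at 0 in all samples of a group.

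The summed level of fibroblast markers was mostly lower in AAS. DCN, COL1A1, COL1A2, COL3A1 and PDGFRA, 5 of 6 listed, summed to 1058 to 20404 CPM in normal stroma (median 4340 CPM) and 420 to 6590 CPM in AAS (median 1886 CPM), and the AAS sum was the larger in 2 of 12 pairs. COL1A1 weighed most in the sum, with a median of 2215 CPM in normal stroma. Of the 5, DCN, the matrix proteoglycan decorin, passed with a log2 fold-change of -1.96 (SE 0.45, edgeR adjusted p = 0.00996). The other 4 did not pass by edgeR and are also in the list of fibroblast activation. Among these, COL3A1 had -1.03 (SE 0.48, edgeR adjusted p = 0.43) and PDGFRA had -0.44 (SE 0.31, edgeR adjusted p = 0.737). The part of fibroblast content in the lower VIM and AHNAK levels was not tested.

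Leukocytes make vimentin too, and the summed level of their markers was mostly higher in AAS. CD74 and ITGAM, 2 of 8 listed, summed to 71.4 to 254 CPM in normal stroma and 231 to 441 CPM in AAS, higher in 11 of 12 pairs. CD74, the invariant chain of antigen presentation, had medians of 22.4 CPM in normal stroma and 158 CPM in AAS and rose with a log2 fold-change of 2.18 (SE 0.38, edgeR adjusted p = 0.000347), while ITGAM, an integrin chain of myeloid cells, had medians of 152 and 175 CPM and a log2 fold-change of 0.24 (SE 0.19, edgeR adjusted p = 0.773). The endothelial markers KDR and TEK, 2 of 8 listed, summed to 9.22 to 89.2 CPM in normal stroma and 0 to 63.4 CPM in AAS. The adipocyte markers LEP and PNPLA2, 2 of 5 listed, had summed medians of 19.0 CPM in normal stroma and 6.45 CPM in AAS. LEP was at 0 in 10 normal stroma and 9 AAS samples, so this sum rested mainly on PNPLA2. The medians of PNPLA2 were 18.2 CPM in normal stroma and 6.45 CPM in AAS. Neither gene had enough counts to be tested, so no change in adipocytes is read from the sum.

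For each of the 3 genes, the 5 tested genes most like it were found by Spearman's rho over the 24 samples after each group was centred on its mean, among 1856 tested genes with a symbol. These are descriptions, since samples share library size and other features. The genes most like ACTA2 were PSIP1 (rho 0.76), MYLK (0.74), BCL9 (0.72), LRRC8A (0.72) and HS1BP3 (0.71), of which MYLK, the myosin light chain kinase of smooth muscle, is a contractile gene. The genes most like VIM were DDX17 (rho 0.83), FBN1 (0.76), COL1A2 (0.75), COL1A1 (0.74) and COL6A3 (0.73), of which 4 code for fibrillin or collagen chains. The genes most like AHNAK were CEP68 (rho 0.83), RNF170 (0.82), INO80D (0.81), LAMA4 (0.78) and AKAP13 (0.74), with the laminin chain LAMA4 as the matrix gene among them. On this scale VIM and AHNAK had a rho of 0.64, ACTA2 and AHNAK 0.33, and ACTA2 and VIM 0.08, against medians over genes of 0.13 for ACTA2, 0.09 for VIM and 0.16 for AHNAK. Without pair 7, over 22 samples, these were 0.60, 0.18 and -0.037, against medians of 0.11, 0.06 and 0.15.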

How the data were processed

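Total RNA of laser-captured stroma from 13 dogs was made into libraries by the authors with a stranded low-input kit. The authors quantified reads with kallisto 0.44.0 against Ensembl CanFam3.1 transcripts, summed them per gene with tximport, and deposited 1 table of estimated counts for 26 samples. The deposited estimated counts were all whole, so rounding changed nothing. Whether kallisto used the strand is not given in the sources used here. Columns were matched to samples by title. Symbols came from the study's tables (3302 of 18466 identifiers), whose fold changes and p-values were not used.

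The 3 genes, the gene lists and the rules for naming genes were chosen with earlier results of these data known. Named genes were the 3, every called list gene, the 3 uncalled list genes with the smallest p per list, the 5 most alike genes, marker genes and muscle actins. CD74 and DCN come in as markers. The result of 1 marker list is not reported here.

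In R 4.3.3, edgeR 4.0.16 was run on 12 pairs without pair 14 (filterByExpr, TMM, quasi-likelihood test, no pair term, as the study's methods name none). Genes were called at a Benjamini-Hochberg adjusted p below 0.05 and a log2 fold-change beyond 1, two-sided. It called 82 of 4544 genes, 28 higher and 54 lower, with a biological coefficient of variation of 66.7%. Each SE of a log2 fold-change is the absolute log2 fold-change divided by the square root of the quasi-likelihood F statistic. Samples of a group come from separate dogs, and no 2 samples were identical. The pair numbers, taken from the sample titles, mark the same dog. The correlation of deviations from the group means averaged 0.125 over same-numbered samples (-0.0255 to 0.396) and -0.00597 over others. It was above 0.1 in 6 of 12 pairs, so it does not by itself settle the pairing of each dog. Correlations used log2 CPM with a prior count of 2 and two-sided permutation tests with 100000 resamples (Python 3.11.15, scipy 1.17.1). Exact 95% Clopper-Pearson intervals were taken for ratios of counts and for shares of the library total. Alternatives were DESeq2 1.42.0, RLE scaling, other count filters, a pair block, all 13 pairs, pair 7 left out, the 10 most counted genes left out, and block age as a covariate. Added after the data were seen were the library total as a covariate, its removal from correlations, shares of the library total per pair, and leaving out 4 pairs. The scripts were tested on simulated data. Sequences and coordinates are not used here.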

Additional observations from a re-analysis of the deposited data

How the results depend on the processing

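Over 14 alternative analyses the log2 fold-changes kept their direction, from 0.81 to 0.999 for ACTA2, from -1.26 to -0.84 for VIM and from -1.81 to -1.51 for AHNAK, and the median log2 difference of the ACTA2 to VIM ratio ran from 1.53 with all 13 pairs to 2.38 without pair 7. With the pair as a replicate block the 3 genes had 0.94, -1.23 and -1.80. The block called 115 genes in place of 82, of which 1 among fibroblast activation genes (COL1A2) and 2 among TGF-beta and SRF regulators, and changed no other list's count.

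DESeq2 called 134 genes over all and 2 fibroblast activation genes. DESeq2 with the replicate block called 227 genes, with 1 contractile gene (ZYX), 3 of fibroblast activation and 2 regulators. Without a filter on low counts 1690 of 18441 genes were called, 1258 higher and 432 lower, against 28 and 54 with the filter, and 3 of fibroblast activation. That list gave 1 call with all 13 pairs with or without the block, without pair 7, with block age and with the library total as covariate, and 2 without pair 7 with the replicate block. Without the 4 pairs with the smallest AAS libraries 1 intermediate filament gene (NES) was called. The causes were not tested.

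With the library total in place of TMM, 5 correlations passed the adjusted permutation test (n = 12): ACTA2 and AHNAK in AAS at 0.78, VIM and AHNAK at 0.85 in normal stroma and 0.87 in AAS, and block age with ACTA2 in AAS at -0.68 and with AHNAK in normal stroma at -0.76. In this scaling a gene that takes much of a library lowers all others together, and its part in these 5 correlations was not tested. With the log2 total regressed out, VIM and AHNAK in normal stroma passed at 0.79. Correlations that did not pass changed sign 8 times. ACTA2 and VIM in AAS came to 0.58 with the library total in place of TMM, and ACTA2 and AHNAK in AAS to -0.16 without the 2 samples farthest from the median. Block age with ACTA2 in normal stroma came to 0.00099 with all 13 pairs, 0.13 without pair 7 and 0.25 without the 2 samples farthest in age, with VIM in AAS to 0.013 without those 2 samples, and with AHNAK in AAS to 0.29 without pair 7 and 0.43 without those 2 samples. Of 234 alternative values, 203 kept their direction and side of the threshold or, for counts of calls, stayed within 1.5 times the main count. Depth limits ACTA2 most, with 10 counts or fewer in 4 of 24 samples.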
